A study of Mus musculus with 6 samples.

Results

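After knockdown of H19 in differentiating mouse myotubes, 52 genes were listed at a level at least 1.5 higher on the log2 scale than in the control. They were chosen on this difference, so that their being higher is what selected them and not a finding. The choice was made among the 3019 features that the authors called as changed, of which 2549 carried a gene symbol. A gene was taken if siH19 exceeded siCon by at least 1.5 in log2 FPKM and if its log2 FPKM in siH19 was at least 0. FPKM counts fragments relative to transcript length and library size, so that it can be compared between genes of different length. Both thresholds were met by 66 features with a symbol, which is 2.59% of the 2549. Of these, 14 were left out by the form of their symbol, either a provisional name ending in Rik or starting with Gm, or the prefix of a large gene family (among them Gdf5, Gja5, Myl2 and Mylk4), which left the 52.

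The cells were a line of C3H mouse myoblasts, the precursor cells of skeletal muscle, which fuse into multinucleated myotubes when serum is withdrawn. In both groups, myotubes were transfected after 40 h of differentiation and harvested 48 h later. One group received a control siRNA (siCon) and the other an siRNA against H19 (siH19), with 3 libraries in each. Ribosomal RNA was removed from total RNA before library preparation, with a kit that keeps the strand. All come from 1 cell line, and the source of the libraries beyond a triplicate transfection is not given in the sources used here.

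H19 is an imprinted long noncoding RNA that is abundant in fetal tissues and in differentiating muscle. It is the host transcript of the microRNA miR-675, and it carries binding sites for the let-7 microRNA family. Skeletal muscle differentiation is driven by bHLH factors of the MyoD family, which bind short DNA motifs called E-boxes, together with MEF2 factors. The genes they switch on encode the contractile apparatus, the membrane system that stores calcium, and the proteins that hold the fibre in its basement membrane.

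Each value below is the authors' group value, a log2 FPKM estimated over the libraries of a group together. There is therefore no value per library and no spread between replicates, and no test was made here; the authors' own test decided which features the table lists. H19 itself was listed at 11.20 in siCon and 7.50 in siH19, a level in siH19 of 7.69% of that in siCon. The labelled cell type was checked against markers of skeletal muscle. Of 14 marker symbols, 10 were in the table, in 9 features, and all 9 were higher in siH19, with a median difference of 0.68. Their summed level was 6225 FPKM in siCon and 9681 FPKM in siH19. Ckm, the muscle creatine kinase, was listed at 6.91 in siCon and 7.67 in siH19, and Myog, the myogenic factor myogenin, at 7.79 and 9.22. Both groups thus held RNA of muscle genes at high levels. Of 8 markers of undifferentiated myoblasts, Myf5 alone was in the table, at 3.41 in siCon and 3.03 in siH19. In bulk RNA, more cells of a kind and more RNA per cell cannot be told apart, so that a higher level of a muscle gene may be read either way.

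Across the table, 1533 of the 2549 features with a symbol, or 60.1%, were higher in siH19. The median difference over all features with a symbol was 0.41, and over the 1533 higher ones it was 0.59. For the 52 genes the median was 1.76, or 3.39-fold, with a range from 1.5 to 3.83. A difference under 1.75 was found for 24 of them, while 15 reached 2 and 6 reached 2.5. The level in siCon is part of the rule too, since choosing wide differences favours genes low in control cells, so that it is given as a description. The median level was 1.28 log2 FPKM in siCon, against 1.06 in the 14 features left out by symbol and 3.30 over all features with a symbol. In siH19 the medians were 2.91, 3.64 and 3.52. In control cells 17 of the 52 (32.7%) were below 0, or 1 FPKM, against 28.6% of the 14 and 9.85% of all features with a symbol. In siH19, 12 of the 52 reached 5, and Actc1, Npnt and Fst reached 6.

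**Figure D1:**
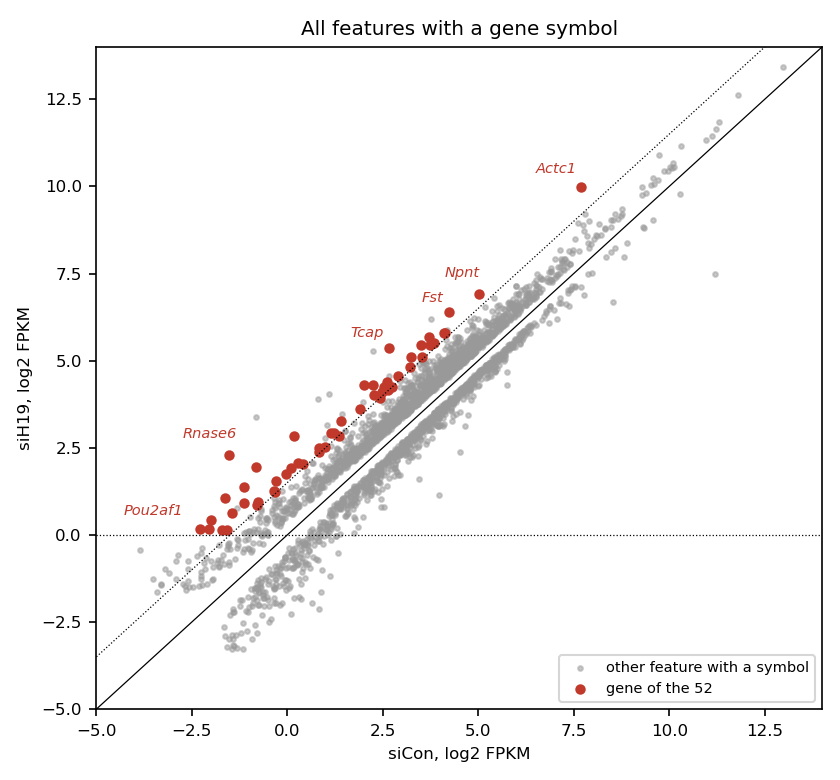
Level in siH19 (vertical axis) against level in siCon (horizontal axis), both in log2 FPKM, for the 2549 features with a gene symbol, with the 52 genes in red. The solid line marks equal levels, and the dotted lines mark the thresholds of 1.5 and 0 that chose the genes, with grey points past both being the 14 left out by name; the empty band along the solid line is there because the table lists only features that the authors called as changed.

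The thresholds cut through a continuous range. Just inside the difference threshold stood BC051019, Inpp4b and Spink4, each with a difference of 1.5, and Ube2q2 with 1.51. Just outside it stood Ephb2 with 1.47, and Nt5dc3 and Trp63 with 1.46 each. At any level, 81 features with a symbol, or 3.18% of the 2549, had a difference of at least 1.5. Just inside the level threshold stood Cilp2 and Dnase1l3, both at 0.13 in siH19, and Pou2af1 at 0.16. Just outside it stood Wdr16 at -0.37, S1pr5 at -0.43 and Serpinb9e at -0.51. S1pr5, a receptor for the lipid sphingosine 1-phosphate, had the wide difference of 3.44 and was left out on its level alone.

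Muscle fibre proteins made up 12 of the 52 genes and had the highest median level of the 5 role groups in siH19, 4.71 log2 FPKM. Actc1, the actin of heart muscle that skeletal muscle uses during its development, was the most abundant of all 52. It was listed at 7.70 in siCon and 9.98 in siH19, or 208 and 1010 FPKM, a difference of 2.28. Acta1, the actin of adult skeletal muscle, was higher still in level but differed less, with 11.30 in siCon, 11.86 in siH19 and a difference of 0.56. The coding parts of these actin genes are nearly identical, so that reads may have been split between them, and whether and how the mapping resolved this is not given in the sources used here. Tcap, or telethonin, caps the giant protein titin at the Z disc, the plate that anchors the thin filaments. Its level was 2.65 in siCon and 5.37 in siH19, and the difference of 2.72, or 6.59-fold, was the widest of the muscle group.

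Other members of the contractile framework lay lower or differed less. Palld, or palladin, crosslinks actin filaments and was listed at 4.12 in siCon and 5.79 in siH19. Capn3, the muscle calpain that is bound to titin, was listed at 2.52 and 4.23. Igfn1, an immunoglobulin and fibronectin domain protein of the Z disc, was at -0.78 and 0.94, below 1 FPKM in control cells. These 3 genes had nearly the same difference, from 1.67 to 1.72. Of 26 actin and Z disc genes, 14 were in the table, of which 13 were higher in siH19 and 5 are among the 52. The other 9 had a median difference of 0.56, against 0.41 over all features with a symbol and 0.59 over the higher ones alone. Within these, Myoz2, a calcineurin-binding Z disc protein, differed by 1.15, Actn2, the muscle alpha-actinin, by 1.10, and Nebl, or nebulette, was the lower one, with 0.46 in siCon and -1.23 in siH19.

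Among the lists whose matched symbols had a single direction, that of the calcium store held the most genes. Casq1, or calsequestrin of fast fibres, binds calcium inside the sarcoplasmic reticulum and was listed at 3.74 in siCon and 5.46 in siH19. Camk2b, a calcium/calmodulin-dependent kinase, was at -0.33 and 1.23. Of 24 genes of calcium storage and release, 14 were in the table, and all 14 were higher in siH19. The 12 beside Casq1 and Camk2b had a median difference of 0.64 and did not reach the threshold. Casq2, the calsequestrin of heart and slow fibres, was more abundant than Casq1, at 7.90 in siCon and 9 in siH19, and differed by 1.10. Atp2a2, a calcium pump of the reticulum, differed by 1.05.

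The sodium pump was represented by Atp1b1, the beta 1 subunit that brings the pump to the membrane, listed at 2.25 in siCon and 4.31 in siH19, a difference of 2.06. Atp1b2, the beta 2 subunit, was lower in level, at -2.18 and -0.80. Fxyd6, a small regulator of the pump, was at 1.24 and 2.17. Both were higher in siH19 and did not reach the threshold. The locus given for Atp1b1 was 7.09 times as long as the annotated gene and also covers Nme7, so that its value may include reads of that gene.

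The remaining muscle genes act at the membrane or in protein turnover. Fbxo40, the muscle F-box protein of a ubiquitin ligase that targets insulin receptor substrate 1, was listed at 1.40 in siCon and 3.28 in siH19. Trim63, the muscle ligase MuRF1, went the other way with a difference of -0.51, and Trim72, a membrane repair protein of muscle, differed by 0.79. No common direction was seen over the ligases, of which 3 of 13 were in the table. Art1, an ADP-ribosyltransferase on the surface of muscle cells, was listed at 3.84 and 5.51. Popdc2, a cAMP-binding membrane protein of heart and skeletal muscle, was at -0.79 and 0.87, and it was the only one of 3 Popeye genes in the table.

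**Figure D2:**
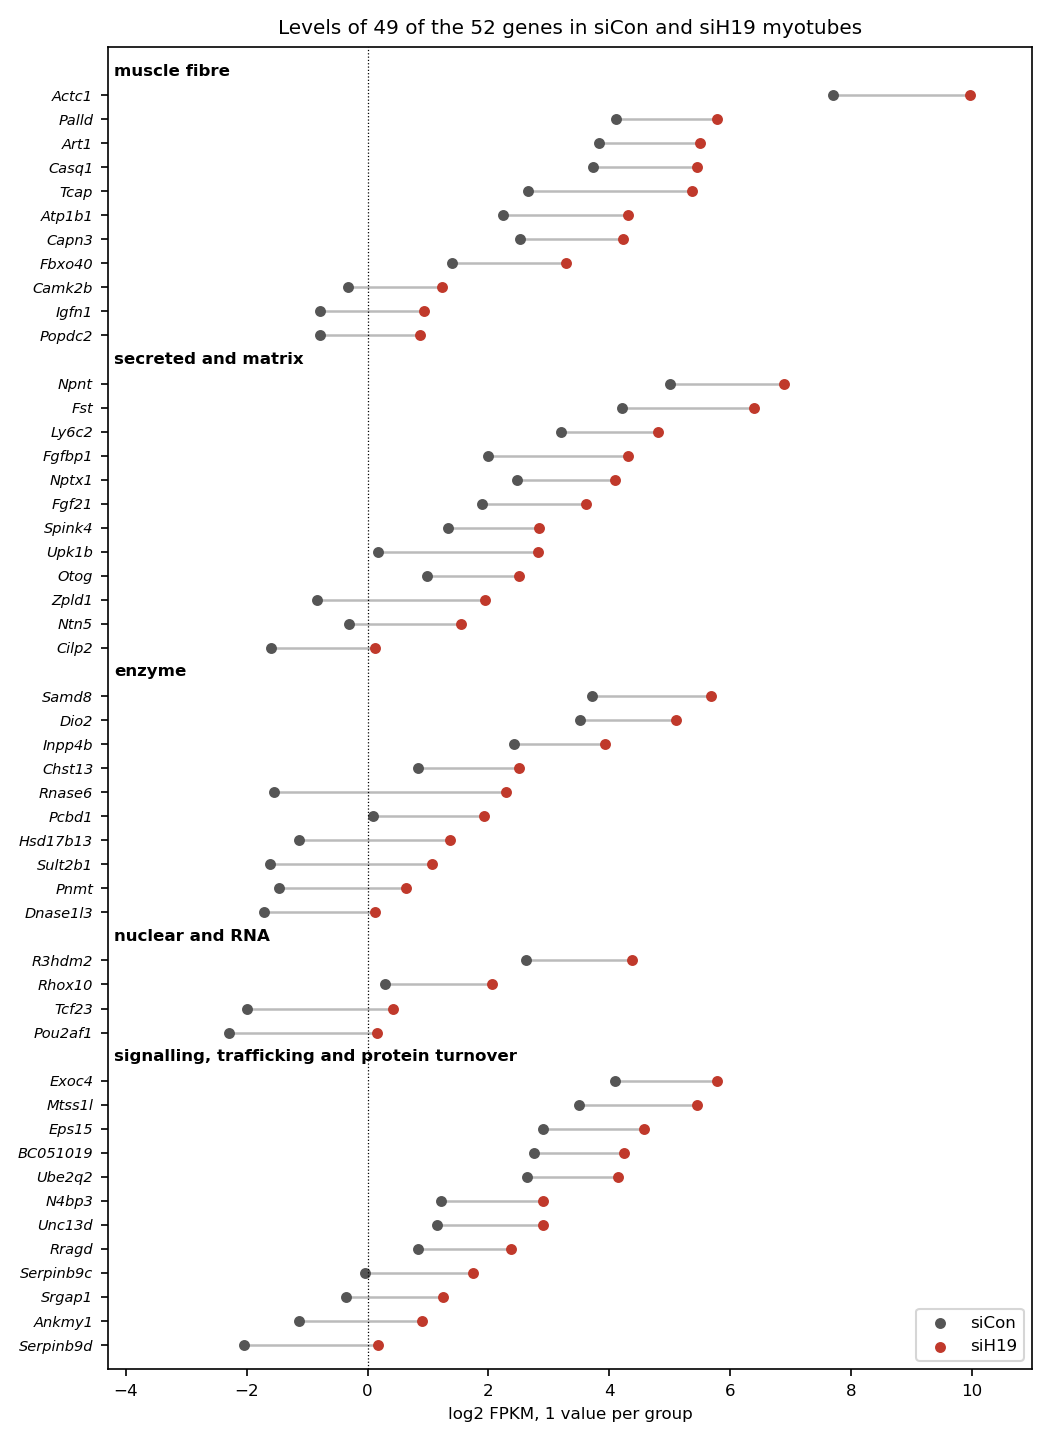
Log2 FPKM of 49 of the 52 genes in siCon (grey) and siH19 (red), grouped by role and ordered within a role by the level in siH19, with 1 authors' value per group and no error bar because none is given. Actc1 lies far to the right at 7.70 and 9.98, whereas 17 genes start left of the dotted line at 0.

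Secreted and matrix proteins made up another 12 genes, with a median difference of 1.79. Fst, or follistatin, binds and blocks activin and myostatin, both of which restrain muscle growth. It was listed at 4.22 in siCon and 6.39 in siH19, or 18.6 and 83.9 FPKM, a 4.50-fold difference. In the same pathway, 7 of 19 genes were in the table, 5 of them higher. Acvr2b, a receptor for activin and myostatin, had a difference of -0.99 and Acvr1b, a partner receptor, of -0.45, whereas the receptor Acvr2a differed by 0.67 and Smad2, which carries the signal to the nucleus, by 0.62. The listed receptors of the pathway were in both directions.

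Fgf21, a hormone that muscle releases under metabolic stress, was listed at 1.89 in siCon and 3.61 in siH19. Fgfbp1, a carrier that frees FGFs from the matrix, was at 2.00 and 4.31, with the wider difference of 2.31. The related Fgfbp3 had a difference of -0.77, and Fgf1, an FGF without a signal peptide, of -1.92. Both were below 1 FPKM in both groups, with Fgfbp3 at -0.19 and -0.96 and Fgf1 at -1.33 and -3.25. Of 16 genes of FGF signalling 6 were in the table, 4 higher and 2 lower, and the higher ones beside Fgf21 and Fgfbp1 were Fgfr3 with 0.94 and Fgfrl1 with 0.88. Fgf21 is also a known target of the amino acid stress response. On that list 6 of 16 genes were in the table: Chac1, which degrades glutathione, differed by 1.00 and Mthfd2 by 0.35, while Atf3, Sesn2 and Ddit4 had differences of -0.48, -0.55 and -0.45. The 5 listed genes beside Fgf21 were thus in both directions, with a median difference of -0.45.

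Npnt, or nephronectin, is a basement membrane ligand of integrins and was the second most abundant of the 52 genes. It was listed at 5.01 in siCon and 6.90 in siH19, or 32.2 and 119 FPKM. Ntn5, a small netrin-related protein, was listed at -0.31 and 1.54. Of 19 basement membrane genes 5 were in the table and all 5 were higher, the other 3 by less: Ntn4 by 0.48, Hspg2, or perlecan, by 0.43, and Itgb1, the integrin beta 1 subunit, by 0.35. The remaining secreted or surface proteins are best known from other tissues. Zpld1, a zona pellucida domain protein of the inner ear, was listed at -0.83 and 1.94, and Upk1b, a tetraspanin of the bladder lining, at 0.17 and 2.83, with differences of 2.77 and 2.66. Otog, or otogelin, of the inner ear was at 0.98 and 2.51, and Nptx1, a neuronal pentraxin, at 2.48 and 4.10. The lowest was Cilp2, a cartilage matrix protein, at -1.59 and 0.13. Spink4, a protease inhibitor of the gut, was at 1.34 and 2.84. Ly6c2, a surface protein of monocytes, was at 3.21 and 4.81, whereas its neighbour and near copy Ly6c1 differed by 0.45.

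Enzymes made up 10 genes, with a median difference of 1.91 and the lowest median level of the role groups in siCon, -0.52. On the scale of log2(FPKM + 1), which shrinks differences of low genes, their median difference was 1.28, below the 1.61 of the muscle fibre genes, whereas on log2 FPKM it was above the muscle genes' 1.72. Rnase6, a secreted ribonuclease of immune cells that kills bacteria, had the widest difference of the 52. It was listed at -1.54 in siCon and 2.29 in siH19, or 0.344 and 4.89 FPKM, a 14.2-fold difference. On the scale of log2(FPKM + 1) its difference was 2.13, below those of Tcap (2.54) and Actc1 (2.27). Its locus, chr14:51128926-51132154 in mm10, covers 0.39 of the annotated gene. Dnase1l3, a nuclease that clears DNA outside cells, was at -1.71 and 0.13. Macrophage markers were looked up because Rnase6 and Ly6c2 are known from myeloid cells. None of 7 symbols was in the table, which says only that none was called as changed.

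Several enzymes act on steroids, hormones or amines. Sult2b1, which adds sulfate to cholesterol, was listed at -1.62 in siCon and 1.07 in siH19, and Hsd17b13, a lipid droplet enzyme of the liver, at -1.14 and 1.36. Pnmt, which makes adrenaline from noradrenaline, was at -1.46 and 0.63. The locus given for Pnmt was 1.79 times as long as the annotated gene and began 216 bp after that of Tcap, on the same strand. Whether its value includes reads that run on from Tcap was not tested. Pcbd1, which recycles the biopterin cofactor that aromatic amino acid hydroxylases need, was at 0.09 and 1.93. On the catecholamine and biopterin list of 15 genes, the sole other one in the table was Dbh, which makes noradrenaline, with a difference of -0.76. Dio2, which converts thyroxine into the active thyroid hormone inside the cell, was listed at 3.52 and 5.10, or 11.5 and 34.3 FPKM. Rxrg, a partner of the hormone's receptor, had a difference of -1.28 at low levels, -1.63 in siCon and -2.91 in siH19. The other enzymes were Samd8, a ceramide phosphoethanolamine synthase, at 3.71 and 5.69, Inpp4b, a phosphoinositide phosphatase, at 2.43 and 3.93, and Chst13, which adds sulfate to chondroitin, at 0.83 and 2.50.

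Nuclear and RNA-binding proteins made up 6 genes. R3hdm2, an R3H domain protein, was listed at 2.62 in siCon and 4.38 in siH19. The others described here were lower in level. Rhox10, a homeobox factor of the reproductive tract, was at 0.29 and 2.06. Tcf23, a bHLH factor, was at -1.99 and 0.42. Pou2af1, a coactivator of B cells, was at -2.29 and 0.16, the lowest level of any of the 52 in siCon.

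The last 12 genes act in signalling, trafficking and protein turnover. Exoc4, a subunit of the exocyst that tethers vesicles to the membrane, was listed at 4.09 in siCon and 5.79 in siH19. Eps15, an adaptor of clathrin-coated pits, was at 2.90 and 4.57, and Unc13d, a factor that primes granules for release, at 1.15 and 2.91. These were 3 of the 5 listed genes among 20 of this pathway. The other listed priming factor, Unc13b, had a difference of -0.77 at low levels, -0.78 in siCon and -1.55 in siH19. Epn2, an epsin of clathrin-coated pits, differed by 0.42. Mtss1l, a protein that bends membranes, was at 3.50 and 5.45, and Srgap1, which inactivates small GTPases of the cytoskeleton, at -0.36 and 1.25. Rragd, a GTPase that signals amino acids to mTORC1 at the lysosome, was at 0.83 and 2.38. On its list of 19 genes, Mitf, a factor known to activate Rragd, differed by 0.80, Rptor, a subunit of mTORC1, by 0.42 and Sesn2, an inhibitor of it, by -0.55. Ube2q2, a ubiquitin-conjugating enzyme, was at 2.64 and 4.15. N4bp3 was at 1.22 and 2.91, Ankmy1 at -1.14 and 0.90, and BC051019 at 2.75 and 4.25.

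Serpinb9c and Serpinb9d belong to a cluster of mouse genes related to the granzyme B inhibitor Serpinb9. They were listed at -0.04 and 1.74 and at -2.05 and 0.17, respectively. Of 12 Serpinb9, Serpinb6 and Serpinb1 genes looked up, 10 were in the table, in 9 features. All 9 were higher, with a median difference of 0.53 over the 7 that are not among the 52. Serpinb6c, which was not on this list, was at -2.61 and -0.76. Serpinb9e differed by 1.74 and stayed outside on its level. The Serpinb9 genes are near copies of each other. The authors' table gave Serpinb9c, Serpinb9d and Serpinb9e the same locus of 190 kb, chr13:33145424-33335366, so that their values are uncertain as to which gene the reads came from.

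Over the 15 lists drawn from the pathways of the 52 genes, 57 features were in the table that are not among them. Of these 44 were higher in siH19 and 13 lower, which can be set beside the 60.1% higher of all features with a symbol. The calcium store gave 12 of the 44, the actin and Z disc list 8 and the Serpinb list 7. Nebl was the only lower feature counted in these lists. The other lists held the rest of the higher features and nearly all of the lower ones.

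**Figure D3:**
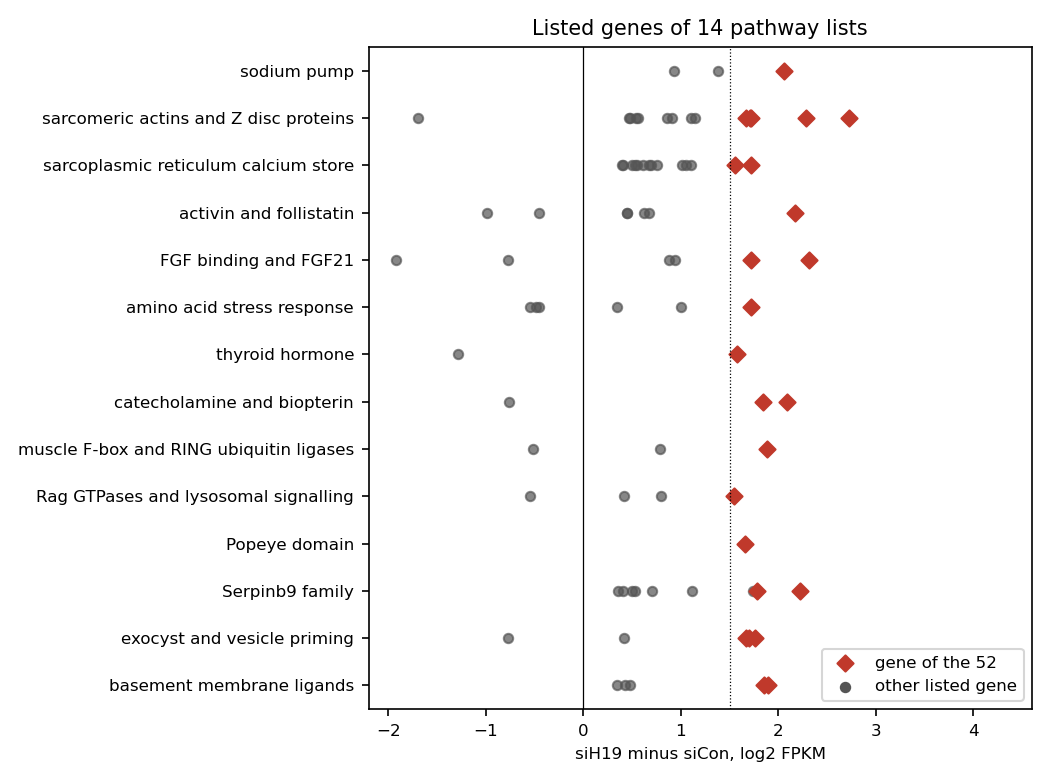
Difference between siH19 and siCon in log2 FPKM for genes of 14 pathway lists that are in the table, 1 row per list, with genes of the 52 as red diamonds and the others as grey points. The dotted line marks the 1.5 that chose the red genes. The grey points of the calcium store, which leave out 2310015B20Rik, all lie to the right of 0. Those of the FGF, activin and amino acid stress lists lie on both sides.

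The rule did not use sequence or position, so promoters were described next. RefSeq promoters of GRCm38.p6, reaching from 250 bases before to 50 after the start, were at hand for 40 of the 52 genes, with 53 starts. The 5 printed here were picked after their matches were seen, for the widest difference (Rnase6), the highest level (Actc1), the most matches to the motifs marked here (Fbxo40), and as examples from the calcium store (Casq1) and the secreted genes (Fgf21). Capitals mark E-boxes, spelled CANNTG. They also mark MEF2 sites, CArG boxes, which serum response factor binds, and the TATA box, spelled TATAAA here.
Rnase6, chr14:51128787-51129086, + strand: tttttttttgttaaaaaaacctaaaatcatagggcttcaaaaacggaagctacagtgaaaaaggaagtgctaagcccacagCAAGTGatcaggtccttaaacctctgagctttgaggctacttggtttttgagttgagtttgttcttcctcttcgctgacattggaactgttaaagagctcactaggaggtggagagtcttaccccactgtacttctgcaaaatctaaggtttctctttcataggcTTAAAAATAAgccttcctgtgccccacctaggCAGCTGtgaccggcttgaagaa
Actc1, chr2:114052826-114053125, - strand: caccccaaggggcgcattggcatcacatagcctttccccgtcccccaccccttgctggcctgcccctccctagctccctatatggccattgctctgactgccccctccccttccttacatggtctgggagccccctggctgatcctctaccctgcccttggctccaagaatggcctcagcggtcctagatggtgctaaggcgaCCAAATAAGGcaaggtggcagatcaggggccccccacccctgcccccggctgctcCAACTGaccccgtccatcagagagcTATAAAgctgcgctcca
Casq1, chr1:172219846-172220145, - strand: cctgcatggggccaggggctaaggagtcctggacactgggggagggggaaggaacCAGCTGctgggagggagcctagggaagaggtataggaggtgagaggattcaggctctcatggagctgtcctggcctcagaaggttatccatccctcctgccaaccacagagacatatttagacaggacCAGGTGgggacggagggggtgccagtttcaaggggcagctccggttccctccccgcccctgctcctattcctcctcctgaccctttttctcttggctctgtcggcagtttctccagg
Fbxo40, chr16:36990418-36990717, - strand: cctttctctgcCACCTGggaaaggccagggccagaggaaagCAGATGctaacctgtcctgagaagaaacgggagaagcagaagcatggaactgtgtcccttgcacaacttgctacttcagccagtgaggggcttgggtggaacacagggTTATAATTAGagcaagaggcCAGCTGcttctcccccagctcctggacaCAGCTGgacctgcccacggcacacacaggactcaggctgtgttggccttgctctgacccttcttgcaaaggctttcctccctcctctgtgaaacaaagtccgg
Fgf21, chr7:45615441-45615740, - strand: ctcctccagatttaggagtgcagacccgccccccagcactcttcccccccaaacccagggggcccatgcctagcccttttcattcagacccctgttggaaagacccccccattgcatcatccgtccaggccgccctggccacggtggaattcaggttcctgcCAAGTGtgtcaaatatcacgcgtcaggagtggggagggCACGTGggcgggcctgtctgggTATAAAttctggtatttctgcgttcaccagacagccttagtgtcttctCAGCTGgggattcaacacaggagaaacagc

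Fbxo40 held 4 E-boxes and a MEF2 match that began 101 bases before the start. Of these E-boxes 2, beginning 81 and 53 bases before it, were CAGCTG, the form of the E-box that MyoD family factors are best known to bind. Actc1 was the only one of the 40 genes with a CArG box (2.5%, against 2.16% of genes higher in siH19 and 1.81% of all genes). The box began 47 bases before this start, and the E-box and TATAAA of Actc1 lay after the start. Fgf21 held a TATAAA beginning 28 bases before its start and 3 E-boxes, 1 of them CAGCTG. Rnase6, with the widest difference, held a MEF2 match that began 4 bases before the start and ran past it. It also held a CAGCTG that began 28 bases after the start. A match says only that the letters are there.

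Over all promoters, both strands were searched. An E-box of any form was in 38 of 53 of the 52 genes' promoters (71.7%), against 72.3% of all 32851 promoters, 64.1% of the promoters of features higher in siH19 and 64.9% of those lower. CAGCTG, which is 1 form of CANNTG, was in 20 of 53 (37.7%) against 16.3% of all promoters, 19.1% of the promoters of features higher in siH19, which include the 52 genes, and 15.4% of those lower. Counted by gene, 15 of 40 (37.5%) had a CAGCTG in at least 1 promoter, against 22.6% of higher, 18.3% of lower and 18.3% of all genes. The muscle fibre group gave 6 of these 15 (Art1, Capn3, Casq1, Fbxo40, Igfn1 and Palld) from 10 genes with a promoter, and the 4 nuclear genes with a promoter gave 0. MEF2 matches were in 3 genes (7.50%), Rnase6, Capn3 and Fbxo40, against 3.90% of higher and 3.70% of all genes. TATAAA was in 8 genes (20%), against 10.6% of higher, 11.4% of lower and 15.7% of all genes. No test was made of these shares, which describe the list.

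The promoters also differed in CpG, the dinucleotide that carries DNA methylation. The median was 7 CpG per 300 bases in the 52 genes' promoters, against 20 in those of all features higher in siH19 and 17 in those lower. At least 10 CpG were in 39.6% of the 52 genes' promoters, against 71.8% and 71.5%. Over all 32851 promoters the values were 7 and 43.5%, so that the 52 genes lay near the whole set and the table's other genes above it. GGGCGG, the GC box, followed the same order, with 32.1%, 60.6%, 56.1% and 35.7%. By role, the median was 3.5 CpG for secreted and matrix genes, 5 for muscle fibre genes and 10.5 for enzymes.

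**Figure D4:**
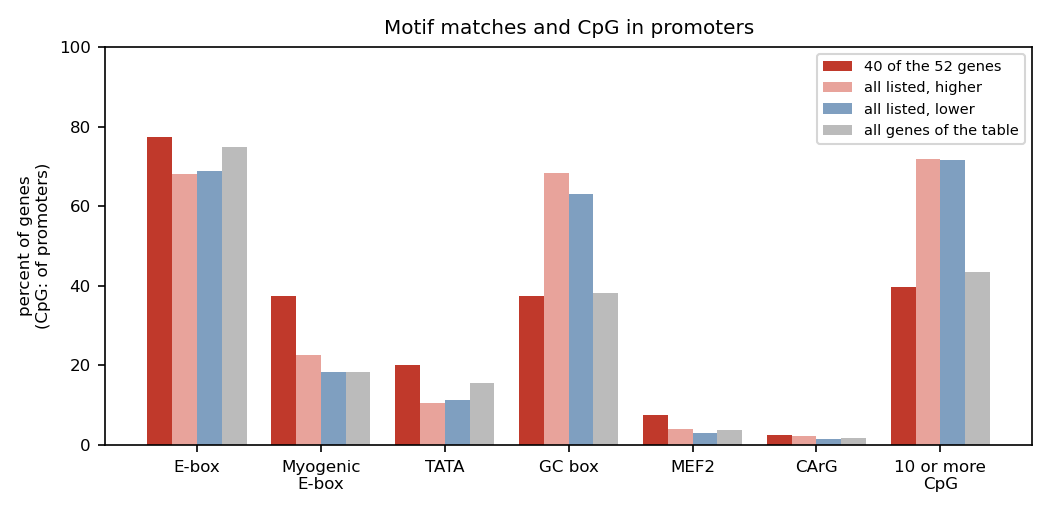
Percent of genes with at least 1 promoter match to each motif, and percent of promoters with at least 10 CpG, for the 40 of the 52 genes with a promoter, for all features higher or lower in siH19 and for all genes of the RefSeq table; the bars carry no error. The red bar stands above the others for the myogenic E-box CAGCTG (37.5%), and near the grey bar of all genes for the GC box and CpG.

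The 52 genes lay on 17 chromosomes, with 7 on chromosome 7, 6 on chromosome 11 and 5 on chromosome 1. H19 is on chromosome 7 too, and those of the 7 described here lay 32.9 to 97 Mb from it. All 52 matched 1 protein-coding gene of the GENCODE annotation. Within 100 kb of each other lay 9 of the 52. Tcap and Pnmt followed each other on the same strand of chromosome 11, 216 bp apart, with differences of 2.72 and 2.09. Fgf21, Ntn5 and Sult2b1 lay in a row on chromosome 7, with gaps of 62.2 and 35.4 kb. Between them lay Mamstr, a coactivator of MEF2, and Car11, a carbonic anhydrase-related protein, with differences of -1.06 and -0.56. Neighbours thus did not all share a direction.

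Counting every listed feature within 100 kb, 39 of the 52 genes (75.0%) had a listed neighbour, against 52.9% of the other higher features with a symbol and 48.0% of the lower ones. The nearest of these was higher in siH19 in 31 of 39 (79.5%), against 66.8% and 58.6%. It was lower in 7, and for Eps15 there was a tie, since the nearest locus, that of Ttc39a, held a feature with a difference of 0.78 and one of -1.29. Some of these neighbours are themselves among the 52 and so were chosen to be higher. With the 52 left out as neighbours, the count was again 31 of 39 (79.5%), against 65.9% and 58.0%. Neighbours without a gene symbol were all higher: 19 such features lay within 100 kb of 16 of the genes, with differences from 0.75 to 2.51 and a median of 1.58. Over all 470 features without a symbol, 77.2% were higher, with a median of 1.17. Near Dio2 lay one at -2.34 in siCon and 0.10 in siH19, and near Pou2af1 one at -0.51 and 1.83. Whether these are separate transcripts or parts of the neighbouring gene was not tested. C130080G10Rik began 24 bp from the Actc1 locus on the opposite strand and was listed at 1.08 and 4.04. Rnase1, a paralog 12.8 kb from Rnase6, differed by 1.09, and Hsd17b11, 12.2 kb from Hsd17b13, by 0.96.

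**Figure D5:**
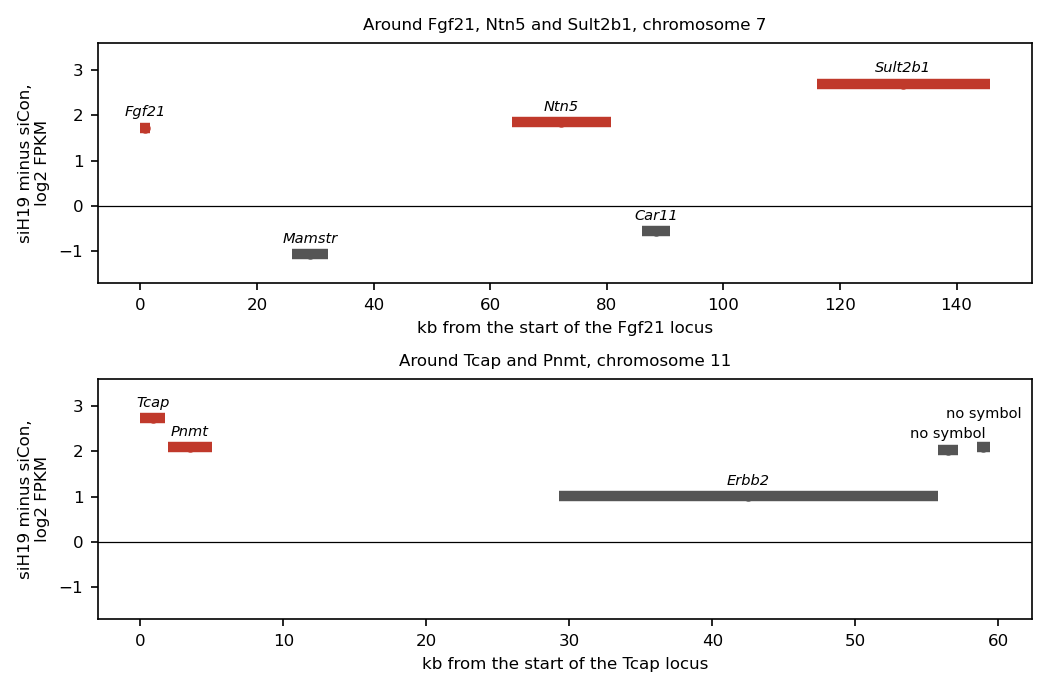
Difference between siH19 and siCon in log2 FPKM for each listed feature around Fgf21, Ntn5 and Sult2b1 (top) and around Tcap and Pnmt (bottom), drawn to scale along the chromosome in kb from the start of the first locus, with genes of the 52 in red. Mamstr (-1.06) and Car11 (-0.56) lie below 0 between red genes, whereas all features around Tcap lie above 0.

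The loci in the table did not always end where the annotated genes do. The locus was within 10% of the annotated length for 32 of the 52 genes and over 1.5 times as long for 12, up to 16 times for Dio2 and over 18 times for Serpinb9c and Serpinb9d. For 12 genes it also overlapped another protein-coding gene, such as Art5 for Art1, Dusp13 for Samd8 and Ganc for Capn3. The 40 genes without such an overlap had the same median difference, 1.76.

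H19 hosts miR-675 and binds let-7, so the longest annotated 3′ UTR of each gene, the part of the messenger RNA after the stop codon, was searched for their seeds. The mature sequences are shown with the seed, bases 2 to 8, in capitals.
miR-675-5p: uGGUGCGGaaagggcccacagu
miR-675-3p: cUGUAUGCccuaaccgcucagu
let-7a-5p: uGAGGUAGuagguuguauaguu

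Matches of 7 bases were counted in the 52 genes, the other genes higher in siH19 and those lower. let-7 matches were in 3 genes (5.77%), Ntn5, Srgap1 and Inpp4b, against 12.6% of the other higher and 12.5% of the lower genes. miR-675-3p matches were in 3 genes (5.77%), Dnase1l3, Casq1 and Eps15, against 9.17% and 7.43%. miR-675-5p matches were in 2 genes (3.85%), Tcf23 and Srgap1, against 3.01% and 1.64%. The 3′ UTRs of the 52 genes were shorter, with a median of 935.5 bases against 1739 and 1050. Per kilobase, let-7 matches numbered 0.0379 in the 52 genes, 0.0678 in the other higher and 0.0963 in the lower genes. For miR-675-3p the rates were 0.0379, 0.0476 and 0.0532. For miR-675-5p they went the other way, with 0.0253, 0.0143 and 0.0137, from 2 matches in the 52 genes. Of the muscle fibre genes Casq1 alone held a match to any of the 3 seeds: aactgtggtctGCATACAgggtgcttgag, with the match to miR-675-3p in capitals, beginning at base 137 of a 3′ UTR of 454 bases.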

How the data were processed

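RNA was measured in 6 libraries, 3 of siCon and 3 of siH19 myotubes. Reads were mapped by the authors to mm10, using the TopHat app 1.0.0 (the submitters' processing notes also name TopHat2 2.0.7) and compared assembled transcripts with Cuffdiff 2.1.1. The deposited values are log2 FPKM, 1 per group over its 3 libraries, to 2 decimals, for features that the authors called. Columns of their own fold changes and q-values were not used. Depth is unknown and no spread, interval or test could be computed.

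Differences are siH19 minus siCon, on features with a symbol, and may be off by 0.01 from rounding. Symbols were matched to GENCODE M21 (52 of 52) and to RefSeq promoters of GRCm38.p6 (40 of 52), starts being taken as counted from 0 in the file and given from 1. Whether counting used strand is not given in the sources used here. The genes named are the 52, those just outside each threshold, listed genes of pathway and marker lists, and listed neighbours within 100 kb. The 52 genes and all lists were chosen with earlier results of these data known, and the seed and CpG counts and the medians by role under pseudocounts, and the neighbours without the 52, were added after the values were seen. Other thresholds, pseudocounts of 1 and 0.1 and other distances were tried. Results of a few genes are not reported here. Python 3.11.15, numpy 2.4.6 and pandas 2.3.3 were used, and scripts were tested on simulated data.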

Additional observations from a re-analysis of the deposited data

How the results depend on the processing

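The number of genes depended on the threshold: 52 became 176 with a difference of at least 1 and 15 with at least 2. It was 23 with log2(FPKM + 1), a scale that shrinks differences of low genes, and 17 when the median of features with a symbol, 0.41, was taken off each difference. The median difference of 1.76 became 1.39 with a pseudocount of 1, 1.70 with 0.1, and 1.72 among genes of at least 2 log2 FPKM in siH19. Without a minimum level, the median level in siH19 was 2.33 in place of 2.91. Within 20 kb, 4 genes lay near another, in place of 9. The other settings tried, such as the 64 genes without a minimum level, the 40 genes whose locus overlaps no other coding gene (a setting chosen after seeing the data), the 12 genes within 500 kb of another or the 32 promoters with an E-box before the start, stayed within 1.5 times the count given. No paired analysis was possible because only group values were at hand, and for the same reason no library could be left out. What limits every value here is that the spread between libraries is unknown, that genes not called are not in the table, and that a share such as that of CAGCTG rests on 40 genes.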

Other observations

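Heart muscle genes were listed beside the skeletal ones. Of 9 heart markers 5 were in the table and all 5 were higher in siH19, against 60.1% of all features with a symbol. Their median difference was 1.16, and their summed level was 1599 FPKM in siCon and 2987 FPKM in siH19. Myl4, the embryonic and atrial myosin light chain, was listed at 9.74 and 10.90, and Tnnt2, the cardiac troponin T, at 9.52 and 10.04. Both are also expressed by embryonic skeletal muscle, and they made up nearly all of the summed level in both groups. Myh6, a cardiac myosin heavy chain, shared its feature with Myh7 and was at 2.64 and 4.13, just under the difference of 1.5. Nppb, the natriuretic peptide B, was at -0.78 and 0.47. The list holds 4 further markers, Nppa, Myl7, Nkx2-5 and Gata4, that were not in the table.

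Markers of 3 other cell types were not in the table at all: none of 7 symbols for macrophages, 6 for adipocytes or 6 for cartilage cells. Of 7 fibroblast markers Col1a1 was in it, with a difference of 0.41. A gene missing from the table was not called as changed, which does not say that it was not expressed.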
